A study of Mus musculus with 2 samples.

Results

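The glypicans and syndecans are the cell surface proteoglycans that carry heparan sulfate, and they were examined here in differentiating mouse ESCs. All 10 genes of both families, chosen by symbol (Gpc1 to Gpc6 and Sdc1 to Sdc4), were present among the 24354 genes with deposited values. RNA-seq was performed for 1 library of differentiating control ESCs (Diff–CONT), derived from Ino80 2f/2f blastocysts and labelled WT, and for 1 library of the inducible Ino80 knockout line after differentiation (Diff–iKO), derived from Ino80 2f/2f;ROSA26-CreER blastocysts. Ino80 is the catalytic subunit of a chromatin remodeling complex. Both lines formed embryoid bodies (EBs) and were attached at day 4. From day 5 they were kept for 7 days in medium with serum, BMP4 and 0.5 µM 4-OHTM. This drug is the ligand that activates CreER, and the control received it as well but lacked CreER. The lines came from different blastocysts, so effects of the line and of Ino80 deletion cannot be told apart. The comparison asks how transcripts of differentiating ESCs differ after Ino80 deletion. With 1 library per condition, no difference has a replicate check and no p-value is given. Values are FPKM, that is, sequenced fragments scaled by transcript length and by library size, so that levels can be compared between genes.

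Glypicans are attached to the outer face of the plasma membrane by a GPI anchor, whereas syndecans span the membrane and have a short cytoplasmic tail. The heparan sulfate chains of both families bind secreted FGF, Wnt, Hedgehog, BMP and VEGF proteins and hold them at the cell surface, where they act as co-receptors or as sinks. By sequence, mouse glypicans form a subfamily of Gpc1, Gpc2, Gpc4 and Gpc6 and a subfamily of Gpc3 and Gpc5, and the syndecans form the pairs Sdc1 with Sdc3 and Sdc2 with Sdc4. In the embryo, Gpc3 is abundant in mesoderm and endoderm derivatives, and its loss in mice and humans causes overgrowth.

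Several facts about the libraries come before the results. Low FPKM values rise in steps of 1 fragment, from which about 28243629 fragments on genes were recovered for Diff–CONT and 21983668 for Diff–iKO. These fragment numbers give 95% intervals, which cover counting error only. The targeted gene Ino80 had an FPKM of 8.90 in Diff–CONT and 10.3 in Diff–iKO, so its level was not lower in the library labelled knockout. A value over the whole gene does not show whether the part removed by Cre is present. Diff–iKO therefore means here the library labelled so. Xist was 0.0639 and 3.59, and 4 genes of the Y chromosome, from Ddx3y (log2 ratio -1.10) to Uty (-2.64), had lower levels in Diff–iKO than in Diff–CONT. Marker lists also moved with the labels. Higher and lower mean here a difference of at least 2-fold with an FPKM of at least 2 in at least 1 library, which 6.73% of all genes at that minimum met as higher and 8.39% as lower. In the library labelled Diff–iKO, 7 of 9 markers of undifferentiated ESCs were higher, Lin28a was lower, and the summed FPKM of the list was 549 in Diff–CONT and 2877 in Diff–iKO. All 10 visceral endoderm markers were lower (summed FPKM 339.7 and 14.8), as were 6 of 11 mesenchyme markers (1994 and 1730). Among the markers at the FPKM minimum, 5 of 5 for cardiomyocytes were lower (67.4 and 12.7 summed over all 8 listed), 6 of 8 for endothelium (62.6 and 72.1 over all 10, with Pecam1 higher) and 3 of 4 for blood (102 and 5.45 over all 6). Of 8 trophoblast markers at the minimum 6 were higher and Cdx2 was lower (17.7 and 73.0 over all 10), of 8 epithelial markers 1 was higher (1598 and 2133), and of 8 neural markers at the minimum 1 was lower (142 and 136 over all 10). The one marker listed at 0 was the globin gene Hba-x in the library labelled Diff–iKO. In bulk RNA, fewer cells of a type and less RNA per cell cannot be told apart, and the part of these cell types in the values below was not tested.

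RefSeq promoters of build GRCm38.p6 were matched for 7 of the 10 genes. The 250 bases upstream of the start are shown for Gpc3, the glypican with the largest difference, for Sdc4, the syndecan with a ratio above 1, and for Sdc3, which differed least among the measured genes. Capitals mark matches, on either strand, to the GC box GGGCGG or to CCAAT.
Gpc3 (chrX:52613975-52614224, minus strand): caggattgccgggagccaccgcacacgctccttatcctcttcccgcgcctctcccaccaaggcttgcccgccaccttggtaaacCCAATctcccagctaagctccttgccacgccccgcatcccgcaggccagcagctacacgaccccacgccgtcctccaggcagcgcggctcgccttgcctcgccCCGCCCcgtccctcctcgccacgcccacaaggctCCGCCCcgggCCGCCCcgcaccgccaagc
Sdc4 (chr2:164443189-164443438, minus strand): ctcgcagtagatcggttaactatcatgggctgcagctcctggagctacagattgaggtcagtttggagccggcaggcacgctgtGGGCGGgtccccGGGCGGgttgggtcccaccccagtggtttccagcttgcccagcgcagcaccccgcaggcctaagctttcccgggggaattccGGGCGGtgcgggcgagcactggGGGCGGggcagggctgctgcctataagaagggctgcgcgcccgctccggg
Sdc3 (chr4:130792287-130792536, plus strand): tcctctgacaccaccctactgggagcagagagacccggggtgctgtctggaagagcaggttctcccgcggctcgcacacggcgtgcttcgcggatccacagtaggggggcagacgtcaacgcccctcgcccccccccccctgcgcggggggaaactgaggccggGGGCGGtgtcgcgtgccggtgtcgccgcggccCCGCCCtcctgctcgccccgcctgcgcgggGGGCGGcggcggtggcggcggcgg
These windows held 3 GC boxes in Gpc3, 4 in Sdc4 and 3 in Sdc3, and the CCAAT match was in Gpc3. The Sdc4 window lies inside the longer gene span that GENCODE gives. The windows of 3 other genes overlap exons that GENCODE annotates, with 250 of 250 bases in Gpc4, 68 in Gpc2 and 73 in Sdc1, so they are not purely upstream sequence. The 4 windows with 0 exon bases, those of Gpc3, Gpc5, Sdc3 and Sdc4, each held at least 1 GC box, which 32.7% of the 32851 promoters of the same length hold, and among them Gpc3 held the CCAAT match, which 33.85% of all promoters hold. Their GC content was 71.6% in Gpc3, 51.2% in Gpc5, 76.4% in Sdc3 and 68.0% in Sdc4, against a median of 52.4% over all promoters. The TATA motif TATAAA was found, among the 7 windows, in that of Gpc5 (12.4% of all promoters), and the E-box CACGTG in none of the 7 (6.02% of all promoters).

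Of the 10 genes, 9 reached an FPKM of 2 in at least 1 library, and 4 of these differed by at least 2-fold, all of them glypicans. Gpc2, Gpc3 and Gpc6 were lower and Gpc4 was higher in the library labelled Diff–iKO. Among all 12376 genes that reached the minimum, 6.73% were higher and 8.39% were lower by this cut-off, 15.1% together. No syndecan passed the cut-off. Counting intervals excluded a ratio of 1 for all 9 expressed genes, 7 lower and 2 higher. Of the 12247 genes at the FPKM minimum that had an interval, 39.2% were lower and 38.7% were higher in this sense, 77.9% together.

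**Figure D1:**
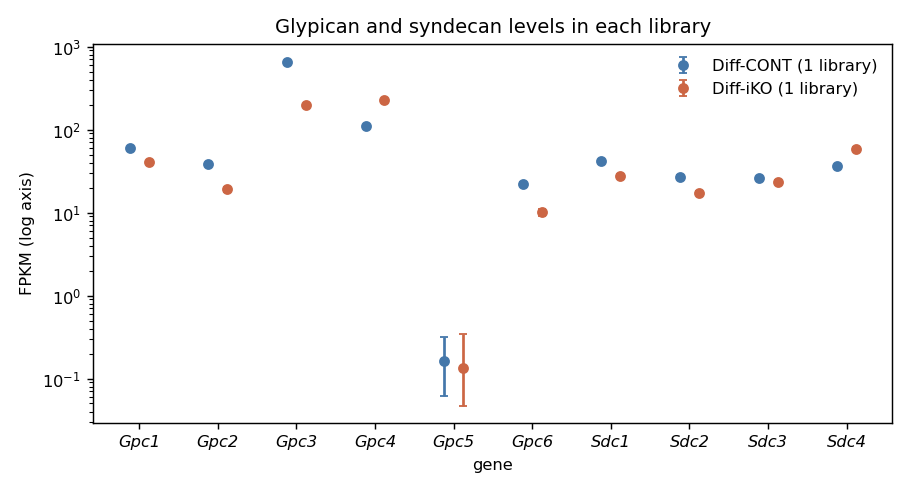
FPKM (log axis) of each glypican and syndecan gene in the Diff–CONT and the Diff–iKO library, 1 point per library, with 95% Poisson counting intervals that are mostly smaller than the points. Gpc3 and Gpc4 lie above the rest in both libraries and exchange order, and Gpc5 lies below 1 FPKM in both.

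Gpc3 was the most abundant gene of both families in the control. Its FPKM was 659 in Diff–CONT and 199.9 in Diff–iKO, with 40173 and 9102 fragments. The log2 ratio was -1.72, with -1.75 and -1.69 as interval bounds, so the control level was 3.30-fold higher. Gpc3 encodes a glypican that binds Hedgehog ligands and limits their signal. In Diff–CONT only 87 genes had a higher FPKM, whereas in Diff–iKO 312 genes did. Of the 636 genes with an FPKM of at least 100 in Diff–CONT, 13 had a lower ratio than Gpc3. Of the 801 genes with an FPKM of at least 100 in the higher library, 4.62% were lower by at least 2-fold.

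Gpc4, which has been linked to Wnt signaling in ESCs, went the other way. Its FPKM was 109.7 in Diff–CONT and 225 in Diff–iKO, a fold of 2.05. Its log2 ratio was 1.03, the bounds of 0.99 and 1.07 lie on either side of the cut-off, and the ratio was 0.94 when both libraries were scaled to the same FPKM sum. Of the same 801 abundant genes, 11.7% were higher by at least 2-fold. Gpc4 thereby became the most abundant glypican transcript in the library labelled Diff–iKO, and the Gpc4 and Gpc3 intervals there (221 to 229 and 195.8 to 204) did not overlap.

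The ratio of Gpc3 to Gpc4 is a comparison within a library and does not depend on how the libraries were scaled. It was 6.01 in Diff–CONT and 0.890 in Diff–iKO, a 6.75-fold difference. These genes are neighbours on the X chromosome. Gpc4 runs from 52053021 to 52165252 and Gpc3 from 52272426 to 52613950 (GRCm38, both on the minus strand), with 107173 bases between them. They lie in tandem, with 9 exons in the Gpc4 transcript and 8 in that of Gpc3, and no other protein-coding gene with a value lies between them. The antisense gene A630012P03Rik, whose span from 52575843 to 52619047 covers the Gpc3 start and which was looked up after the Gpc3 value was seen, was listed at 0 in both libraries. The nearest protein-coding genes on the far side of Gpc3 were Ccdc160, with an FPKM of 2.59 and 1.98, and Phf6, a chromatin-associated protein gene, with 12.7 and 9.45 (log2 ratio -0.43). On the side of Gpc4, 1700080O16Rik was at 0 and 0.0351, and the protease gene Usp26 at 0.278 and 1.20, both below the FPKM minimum. None of these 4 neighbours passed the cut-off. Over 475 X-linked genes whose mean FPKM reached 1, the median log2 ratio of FPKM + 0.1 was 0.16. This lay above the range of the autosomal medians, -0.08 to 0.06. Of the 437 X-linked genes at the FPKM minimum, 14.2% were higher and 7.55% lower by the cut-off. Gpc3 lay below the X-linked median and Gpc4 above it. The part of the Xist and Y-linked differences in these values was not tested.

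Gpc6 and Gpc5 form the other tandem pair, on chromosome 14. Gpc6, which promotes growth of the long bones, runs from 116925315 to 117976544 and was at 22.1 in Diff–CONT and 10.04 in Diff–iKO. Its log2 ratio of -1.14 was past the cut-off, with bounds of -1.29 and -0.99 that lie on either side of it. Gpc5, from 115092215 to 116525179, was near the limit of detection, at 0.160 and 0.132. Only 7 and 5 fragments stood behind these values, and the interval of its log2 ratio of -0.28 ran from -2.06 to 1.81, so no difference was detectable at this depth. Of the nearest protein-coding genes with values, Slitrk5 (FPKM 2.23 and 1.06) and Slitrk6 (2.42 and 0.396) were lower past the cut-off with levels close to the FPKM minimum, at 3409074 and 4337066 bases from Gpc5, whereas Tgds on the other side was 14.0 and 13.5 and Dct was below the minimum at 0.0481 and 0.0215.

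Gpc1 and Gpc2 are single genes. Gpc2, a glypican of the developing nervous system which spans 138273655 to 138280005 on chromosome 5, measured 38.3 FPKM in Diff–CONT and 19.05 FPKM in Diff–iKO. Its log2 ratio of -1.01 (interval -1.11 to -0.91) lies at the cut-off and was -0.97 with a pseudocount of 1. Exons of Gm43720, a gene on the same strand, overlap those of Gpc2. The neural marker list had a median log2 ratio of -0.26, and 1 of its 8 genes at the FPKM minimum passed the cut-off. Gpc1, an FGF co-receptor on chromosome 1 from 92831645 to 92860779, was 59.4 and 40.3 (log2 ratio -0.56, interval -0.62 to -0.50) and did not pass.

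**Figure D2:**
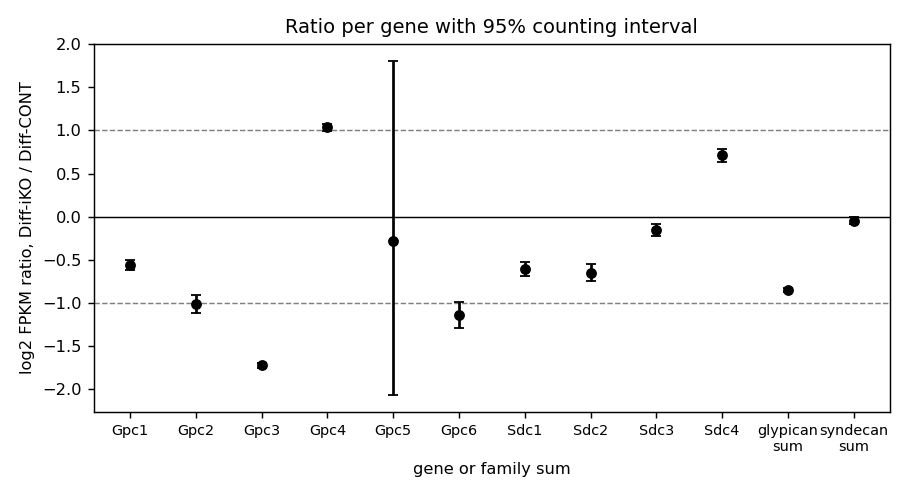
Log2 FPKM ratio of the Diff–iKO to the Diff–CONT library for each gene and for the summed FPKM of each family, with 95% counting intervals; dashed lines mark a 2-fold difference. Gpc3 lies lowest at -1.72, Gpc4 and Sdc4 are the genes above 0, the interval of Gpc5 runs from -2.06 to 1.81, and the syndecan sum lies close to 0.

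Summed over the 6 glypicans, FPKM was 889 in Diff–CONT and 494 in Diff–iKO, so its log2 ratio was -0.85 (interval -0.87 to -0.83). This sum rests on Gpc3. Without it the other 5 genes summed to 229.7 and 294, a log2 ratio of 0.36, and without Gpc3 and Gpc4 the remaining 4 summed to 120.0 and 69.5, a log2 ratio of -0.79. Gpc3 made up 74.2% of glypican FPKM in the control and 40.5% in the library labelled Diff–iKO, while the share of Gpc4 was 12.3% and 45.5%. The other glypicans kept small shares, with Gpc1 at 6.68% and 8.15%, Gpc2 at 4.31% and 3.86%, and Gpc6 at 2.49% and 2.03%.

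**Figure D3:**
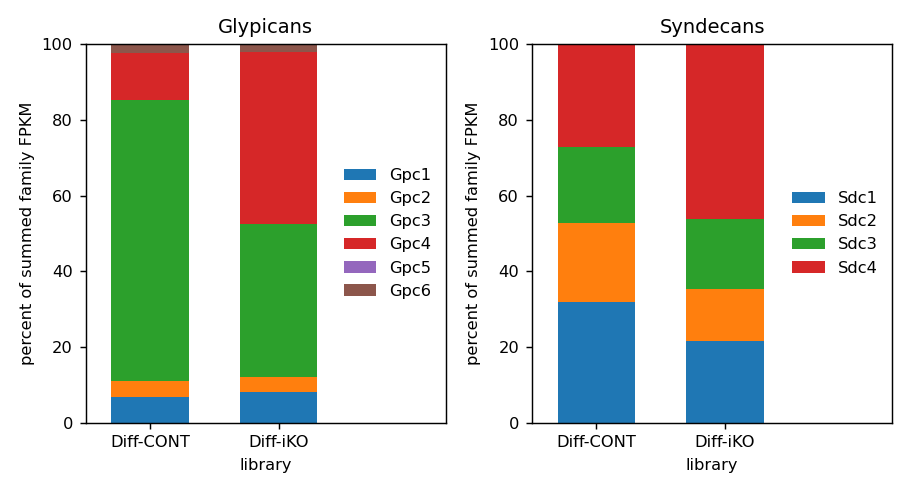
Share of the summed FPKM of each family (percent) taken by each gene in the Diff–CONT and Diff–iKO library. Gpc3 goes from 74.2% to 40.5% of glypican FPKM and Gpc4 from 12.3% to 45.5%, and Sdc4 goes from 27.3% to 46.1% of syndecan FPKM.

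None of the 4 syndecans passed the cut-off. Their log2 ratios ran from -0.65 for Sdc2 to 0.71 for Sdc4. Sdc4, which acts at focal adhesions with protein kinase C alpha and lies on chromosome 2 from 164424247 to 164443887, was 35.9 in Diff–CONT and 58.7 in Diff–iKO. Its log2 ratio of 0.71 (interval 0.63 to 0.79) was the highest of the family and under the cut-off. Sdc1, the syndecan typical of epithelia, lies on chromosome 12 from 8771323 to 8793715 and was 42.0 and 27.6 (log2 ratio -0.61, interval -0.69 to -0.53). The epithelial markers Krt8 (407 and 575.5) and Krt18 (522 and 720.5) had ratios above 1, and the median log2 ratio of their list was 0.48, with 6 of 8 above 0. Sdc2, typical of mesenchyme, on chromosome 15 from 32920723 to 33034935, was 27.1 and 17.3 (-0.65, interval -0.74 to -0.55), beside a mesenchyme marker median of -0.998. Sdc3, known from the nervous system and from muscle progenitors, lies on chromosome 4 from 130792537 to 130826319 and was nearly level at 26.3 and 23.6 (-0.15, interval -0.23 to -0.08).

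The sum of the 4 syndecans was 131 in Diff–CONT and 127 in Diff–iKO, and the log2 ratio was -0.04 (interval -0.09 to -0.004), with Sdc4 on one side and the other three on the other. Without Sdc4 the sum was 95.5 and 68.6 (-0.48). Sdc1 was the leading syndecan in the control with 32.0% of the family, and Sdc4 in the library labelled Diff–iKO with 46.1%, after 27.3% in the control. The ratio of Sdc4 to Sdc1 was 0.854 in Diff–CONT and 2.13 in Diff–iKO. The summed glypicans exceeded the summed syndecans 6.77-fold in Diff–CONT and 3.88-fold in Diff–iKO.

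In Diff–CONT the order of levels was Gpc3, Gpc4, Gpc1, Sdc1, Gpc2, Sdc4, Sdc2, Sdc3, Gpc6 and Gpc5. Counting intervals of neighbours in this order overlapped for Gpc2 with Sdc4 and for Sdc2 with Sdc3. In the library labelled Diff–iKO the order was Gpc4, Gpc3, Sdc4, Gpc1, Sdc1, Sdc3, Gpc2, Sdc2, Gpc6 and Gpc5, and intervals overlapped for Gpc2 with Sdc2. Sdc4 moved from the sixth place to the third, and Gpc2 from the fifth to the seventh.

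For Gpc3, which had the highest FPKM of the 10 genes in Diff–CONT and the second highest in Diff–iKO, the genes with the nearest log2 ratio were sought among those with an FPKM of at least 100 in the higher library. With 2 libraries a pattern is a single ratio, so likeness means only a close ratio. The nearest were Nnat (147 and 43.6), Ivns1abp (104.8 and 32.8), the carbonic anhydrase gene Car4 (343 and 95.7), Igfbp4 (196 and 65.1), which encodes an IGF binding protein, and Lin28a (103 and 28.6), an RNA-binding regulator of let-7. Their ratios lay within 0.132 of that of Gpc3 on the log2 scale.

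Few genes that build, edit or break down heparan sulfate, or that act on its carrier proteins, passed the cut-off. The list of chain editing and release also holds genes whose products do not act on the chain, such as proteases. In 6 lists with 60 genes, from sugar and sulfate donors to lysosomal breakdown, 49 genes reached the FPKM minimum, and 2 of these were higher and 1 was lower past the cut-off, beside 6.73% higher and 8.39% lower among all genes. Ratios lay on both sides of 1, with 31 above and 20 below, and the median log2 ratio of FPKM + 0.1 was 0.09 over the 51 genes whose mean FPKM reached 1. The median over 13145 genes of the whole data was -0.01. Among donor genes, Uxs1, which makes UDP-xylose for the linker, was higher (13.6 and 28.2), a call that ended with the same FPKM sum in both libraries (log2 ratio 0.95) and with a pseudocount of 1 (0.99). Ugdh, which makes UDP-glucuronic acid, was 35.2 and 18.8 (log2 ratio -0.90) and the phosphatase gene Impad1 was 37.3 and 34.6. None of the 7 linker genes passed the cut-off, with B3gat3 at 31.7 and 30.8 and Xylt2 at 17.2 and 24.7. The chain polymerases Ext1 (43.3 and 38.8) and Ext2 (55.3 and 82.4) did not pass either.

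Among 16 genes of chain modification, 8 reached the minimum and 1 passed the cut-off. This was the 3-O-sulfotransferase gene Hs3st3b1, at 4.57 in Diff–CONT and 2.25 in Diff–iKO (log2 ratio -1.02, interval -1.25 to -0.81). The call ended with a pseudocount of 0.1 (-0.99) or of 1 (-0.78) and with an FPKM minimum of 5. The 6-O-sulfotransferase gene Hs6st1 was 35.3 and 46.6 and the N-deacetylase/N-sulfotransferase gene Ndst1 was 24.7 and 27.0. Among 14 genes of chain editing and release, Notum, which encodes a secreted Wnt deacylase first described as acting on glypicans, was higher (11.2 and 28.3, log2 ratio 1.34, interval 1.20 to 1.48). The proteases with the highest levels were near level, Mmp14 at 173 and 184 and Mmp2 at 174 and 151. Of 8 lysosomal enzymes 7 reached the minimum and none passed the cut-off, with Hgsnat at 24.9 and 32.95, and the list median was 0.37.

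Beside the 15.1% of all genes at the FPKM minimum that passed the cut-off in either direction, these lists are short, and nothing particular to them is read from their counts. None of 15 GPI anchor genes passed (median log2 ratio 0.24), the highest being Pigt (51.8 and 61.3) and Gpaa1 (34.8 and 55.4), and none of the 9 genes for syndecan tail partners that reached the minimum, of 10 listed, did (median -0.10), the highest being Actn1 (163 and 250.02) and Cttn (135.5 and 138). Of 10 other proteins that can carry heparan sulfate, 2 were lower, namely the TGF-beta co-receptor gene Tgfbr3 (14.5 and 5.45) and Spock2 (11.1 and 5.25), whose call ended with a pseudocount of 1, and the basement membrane genes Col18a1 (284 and 367) and Hspg2 (157 and 273) did not pass. Among 16 chondroitin sulfate enzymes, which share the linker, Chst7 was higher (1.21 and 2.75, a call that ended with a pseudocount of 1 and with an FPKM minimum of 5) and Chst15 was lower (18.1 and 5.80), and the highest were Chpf (27.3 and 49.0) and Chst12 (28.8 and 41.1).

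**Figure D4:**
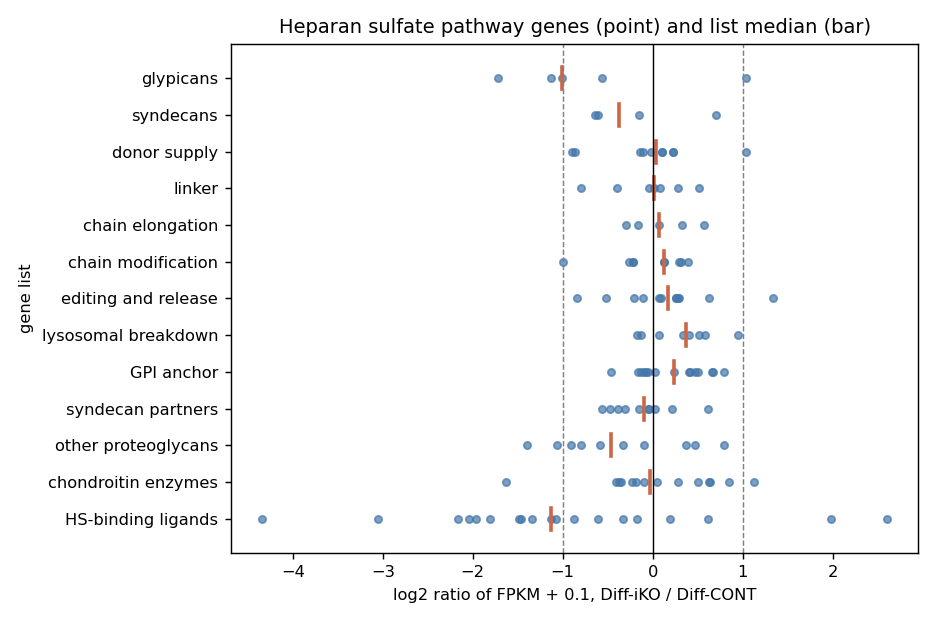
Log2 ratio of FPKM + 0.1, Diff–iKO to Diff–CONT, for genes whose mean FPKM reached 1 in 13 lists, 1 point per gene, with the list median as a bar and dashed lines at a 2-fold difference. Most points of the lists from donor supply to lysosomal breakdown lie between the dashed lines, whereas the glypicans and the ligands spread beyond them.

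Secreted ligands and other secreted proteins known to bind heparan sulfate, with Igf2 added, had the lowest median of the 11 lists around the families. This list was chosen with earlier results of these data known, so its counts and its rank give no independent support. Of 22 genes, 19 reached the FPKM minimum, and 11 of these were lower and 2 were higher past the cut-off, beside 8.39% lower and 6.73% higher among all genes. The median log2 ratio was -1.13 over 19 genes. Lower were Fgf5, Fgf8, Fgf10, Vegfa, Wnt5a, Wnt11, Ihh, Bmp2, Bmp4, Cxcl12 and Igf2, from Fgf8 with a log2 ratio of -4.50 to Wnt5a with -1.09 (Wnt11 was not past the cut-off with a pseudocount of 1, nor Ihh with an FPKM minimum of 5), and higher were Fgf4 (7.46 and 46.0) and Tfpi (35.2 and 139.6). The most abundant ligand genes were Igf2, at 1000.4 and 364, and the midkine gene Mdk, at 527 and 347. Over all 11 lists, 116 of 133 genes reached the FPKM minimum, 5 were higher and 15 were lower, and 11 of the 15 were ligands.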

How the data were processed

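The authors deposited FPKM values for 24354 genes in 2 libraries, made with STAR 2.7.9a on mm10 and with Cuffquant and Cuffnorm of Cufflinks 2.2.1. The annotation and strand setting used for counting, and read totals, are not given in the sources used here. Libraries came from 1 µg of total RNA and a stranded mRNA kit. The log2 ratio of Diff–iKO to Diff–CONT was computed without a pseudocount, and the cut-off was FC ≥ 2 with FPKM ≥ 2 in at least 1 library. List medians used FPKM + 0.1 over genes with a mean FPKM ≥ 1.

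The depth that turns FPKM into fragments was fitted to steps in low values of 10487 genes with a single RefSeq transcript of at least 1000 nucleotides. Values within 0.2 of a whole multiple made up 85.6% of 1470 values in Diff–CONT and 83.9% of 1611 in Diff–iKO. The share by chance is 40% for a setting fixed in advance. Depth and fragment length were fitted to these same values, so the comparison is not a test. The length for each gene was that of its shortest RefSeq transcript. Intervals of ratios are exact (Clopper-Pearson) 95% intervals, those of levels are exact Poisson intervals, and those of family sums use a normal approximation. The procedure was also run on simulated data made of whole fragments with a single length per gene. That run therefore cannot show how it fares for genes with several transcripts.

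The genes named were all 10 family members, list genes past the cut-off, the 2 of each list with the highest mean FPKM, the nearest neighbours of the tandem pairs and the 5 genes most like Gpc3. A gene of the lysosomal list is not reported here, not all those of the ligand and marker lists are printed with values, and genes named outside this rule were chosen after their values were seen. The members, lists and markers were chosen with earlier results of these data known. Coordinates are from GENCODE vM21 (GRCm38), which is the mm10 assembly. Without a stated strand setting, overlapping antisense genes cannot be told apart, as for Gm20713 with Gpc5, and Gm12970 and Gm26716 with Sdc3. Ankmy1, antisense to Gpc1, was at 0.109 and 0.146 FPKM beside 59.4 and 40.3 for Gpc1. Gm43720 overlaps exons of Gpc2 on the same strand, so the Gpc2 value is uncertain. Computations used scipy 1.17.1, pandas 2.3.3 and numpy 2.4.6 in Python 3.11.15, with figures by matplotlib 3.10.9.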

Additional observations from a re-analysis of the deposited data

How the results depend on the processing

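Of 11 alternatives (pseudocounts, FPKM filters, fold change minimums, 3 scalings and summed rows of one symbol), only the scalings could change the sign of a log2 ratio, and they moved all genes alike, by -0.09 to 0.01. Gpc3 ranged from -1.82 to -1.71 and Gpc4 from 0.94 to 1.04. Scaling to the same FPKM sum left 0 members higher and moved the summed glypican log2 ratio to -0.94 and the summed syndecan log2 ratio to -0.14. A pseudocount of 1 left Gpc3 and Gpc6 lower and 3 pathway genes higher. With FC of at least 1.5, 2 members were higher and 5 lower, and 17 pathway genes higher and 24 lower. With FC of at least 4, 0 members were higher and 0 lower, and 1 pathway gene was higher and 5 lower. Over all genes, 833 were higher and 1038 lower, against 1846 and 2177 with FC of at least 1.5, 278 and 237 with FC of at least 4, 2794 and 2761 with no FPKM filter, 702 and 1226 with the same FPKM sum, 807 and 1002 with a pseudocount of 0.1, and 566 and 671 with FPKM of at least 5. No symbol occurs in more than 1 row, so summing rows changed nothing. No paired analysis was possible because each group has 1 library, and for the same reason no library could be left out. Depth limits Gpc5, which had 7 and 5 fragments, and the spread between cultures is unknown.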

Other observations

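The values of 3 pairs of related enzymes of heparan sulfate metabolism are given here. These pairs were picked after their values were seen because their ratios lay on opposite sides of 1. None of these genes passed the 2-fold cut-off. Other related genes of the lists lay on the same side, such as the protease genes Adam10 (log2 ratio 0.29) and Adam17 (0.26), which are not enzymes of the chain. The endosulfatase gene Sulf1, whose product removes 6-O-sulfates from the chains outside the cell, had an FPKM of 84.8 in Diff–CONT and 47.3 in Diff–iKO (log2 ratio -0.84, counting interval -0.89 to -0.79), whereas Sulf2 was 105.3 and 162.5 (0.63, interval 0.59 to 0.66). The xylosyltransferase gene Xylt1, which starts the chains, was 2.48 and 1.39 (-0.83), and Xylt2 was 17.2 and 24.7 (0.52). The chain polymerases were Ext1, at 43.3 and 38.8 (-0.16), and Ext2, at 55.3 and 82.4 (0.58). With 1 library per condition, these values have no replicate check.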
